A study of Rattus norvegicus with 40 samples.

Results

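The MYB, FOXM1 and E2F regulators of the cell cycle were measured by RNA-seq in rat liver during chemical hepatocarcinogenesis. They were chosen by symbol as 10 genes: Mybl1, Mybl2, Foxm1, E2f1, E2f2, E2f3, E2f7, E2f8, Lin9 and Rbl1. Of these, 7 had a row among the 17337 genes of the deposited count tables, and E2f2, E2f8 and Lin9 were not analysed here. Mybl1 and Mybl2 were also noted for a fall between weeks 14 and 20, so their values in any comparison that uses libraries of those weeks are given as a description, with no test.

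E2F proteins bind DNA with a DP partner at promoters of S-phase genes. In resting cells they are held in check by the pocket proteins, RB1, RBL1 (p107) and RBL2 (p130), until cyclin-dependent kinases phosphorylate these. E2F1, E2F2 and E2F3 are the activators, whereas E2F7 and E2F8 are atypical members that bind without DP and repress. The MuvB core, which includes LIN9, joins E2F4 and a pocket protein in the repressive DREAM complex of resting cells, and later takes up B-MYB (the product of Mybl2) and FOXM1 to switch on mitotic genes. A-MYB, the product of Mybl1, is best known from the testis. Adult liver rests for the most part, and its hepatocytes enter the cycle after injury or loss of tissue.

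Sequences at the start of 3 of these genes are shown because they hold words that E2F and DREAM complexes recognise. The windows searched for Lin9 and Rbl1 held none of the E2F words, but they lie inside a longer annotated transcript, so they are not compared with the others. RefSeq sequences for assembly GRCr8 covered 5 of the 10 genes (Mybl2, E2f3, E2f7, Lin9 and Rbl1). The 250 bases before the listed start site were searched on both strands for the E2F word TTGGCGC, its variant TTGGCGG and the related word TTCCCGC, for the cell cycle homology region (CHR), spelled TTTGAA or alternatively TTCGAA, and for CCAAT. Read on the other strand, CCAAT is ATTGG and can share bases with the first 2 E2F words, which did not happen in the sequences shown. Capitals mark the matches, and only bases before the outermost annotated start are given for E2f3 and E2f7. The Mybl2 match lies past that start, inside a longer annotated transcript, and the 210 bases before it held no E2F word. The Mybl2 stretch lies at chr3:172124780-172124806 (plus strand), that of E2f3 at chr17:34810166-34810354 (plus strand) and that of E2f7 at chr7:48036653-48036880 (plus strand).
Mybl2: gccgacgcacTTGGCGGgagataggaa
E2f3: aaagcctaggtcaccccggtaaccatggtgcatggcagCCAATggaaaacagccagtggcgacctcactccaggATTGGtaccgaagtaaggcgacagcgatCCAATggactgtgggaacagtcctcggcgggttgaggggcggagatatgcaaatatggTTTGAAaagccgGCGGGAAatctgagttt
E2f7: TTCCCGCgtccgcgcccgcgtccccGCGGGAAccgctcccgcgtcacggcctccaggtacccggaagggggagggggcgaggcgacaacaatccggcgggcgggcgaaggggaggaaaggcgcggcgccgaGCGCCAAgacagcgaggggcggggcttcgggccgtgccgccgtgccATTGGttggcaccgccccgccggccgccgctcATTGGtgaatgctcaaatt
Mybl2 held 1 E2F match in its 250 bases, E2f3 held 2 (1 of them beyond the stretch shown) and E2f7 held 3. Of the words searched, Lin9 held only 1 TTCGAA, found in 1.4% of promoters, and Rbl1 held none, which says only that these letters are not in this window. At least 1 of the 3 E2F words stood in 6.68% of 33469 promoters of the same length. The 3 CCAAT matches of E2f3 and the 2 of E2f7 compare with 34% of promoters that held at least 1, and TTTGAA, matched once in E2f3, stood in 16.2%. These are matches of letters and do not show binding.

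Male Fischer 344 rats, 7 weeks old at the start, received DEN (diethylnitrosamine, a carcinogen that hepatocytes turn into a DNA-alkylating agent) by intraperitoneal injection once a week at 50 mg/kg. Liver was taken after 8 or 14 weeks of injections, or at 20 weeks, when rats injected for 14 weeks had been left for another 6 without DEN. Untreated rats of matching age (no DEN) were the controls at each time. Non-tumoral tissue (NT) was sampled at all 3 times and tumoral tissue (T) at 14 and 20 weeks, as 2 nodules from each of the rats that gave NT. Each of the 8 groups held 4 rats, 24 rats in all, and both nodules of a rat were summed into 1 value. The histology of single nodules was not used here.

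The 40 libraries held between 20528515 and 160622633 read pairs assigned to genes (median 30477421). The highest was NT of rat H26 at 20 weeks, and the next held 39355849. Every hepatocyte marker was expressed in all groups, with a summed level of 8 markers from 155290 to 317851 CPM (the gene's count relative to the TMM-scaled library size), lowest in T. Marker sums of other cells moved with DEN: the 4 bile duct markers measured summed to 16.01 to 23.4 CPM in no DEN liver, 28.2 to 85.4 CPM in NT and 61.3 to 181 CPM in T, and the 6 stellate cell or fibroblast markers to 168 to 258, 229 to 459 and 262 to 468 CPM. The 5 endothelial markers summed to 54.8 to 145 CPM in no DEN liver and to 148 to 212 CPM in NT and T. The 6 T cell markers summed to 2.62 to 4.62 CPM in no DEN liver, 3.75 to 10.3 CPM in NT and 4.52 to 9.87 CPM in T, and the 5 B cell markers measured to 0.756 to 1.97, 2.30 to 4.10 and 3.60 to 5.44 CPM. The 7 macrophage markers overlapped between no DEN liver, NT and T over all weeks (243 to 711 CPM). No marker measured was at 0 throughout a group. The part of these cells in the results below was not tested, and in bulk tissue more cells with a transcript cannot be told apart from more transcript per cell. Among the DEN-treated rats, F09 and F10 at 8 weeks, F06 at 14 weeks and F03 at 20 weeks carry labels beginning with F, whereas every other rat, all controls included, is labelled H. What the letter stands for is not given in the sources used here, so values without the F rats are given for several of the results that they move.

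The A-MYB gene Mybl1 was high in every DEN-treated liver at 8 and 14 weeks and much lower at 20 weeks. At 8 weeks it stood at 0.655, 1.30, 2.10 and 1.73 CPM in the no DEN rats against 7.68, 8.34, 10.02 and 14.9 CPM in NT. The groups did not overlap, and Mybl1 rose, with a log2 fold change of 2.81 (SE 0.32, adjusted p = 0.000189, edgeR quasi-likelihood test with Benjamini-Hochberg adjustment over all genes). Such separation was common, as NT lay wholly above the controls for 18.8%, 25% and 16.1% of all genes at 8, 14 and 20 weeks. T lay wholly above them for 27.6% and 27.3% of genes at 14 and 20 weeks, and wholly below for 23.9% and 21.5%. At 14 weeks it was 1.08 to 1.77 CPM without DEN, and 14.3, 14.4, 17.7 and 16.4 CPM in NT, with a log2 fold change of 3.41 (SE 0.15). T of the same rats gave 16.5, 13.3, 16.2 and 15.5 CPM, within the range of NT or just below it. At 20 weeks NT held 3.51, 2.68, 6.13 and 6.82 CPM against 1.78, 3.15, 3.04 and 3.40 CPM without DEN. These groups overlapped, through rat H25 at 2.68 CPM, and the log2 fold change was 0.77 (SE 0.32). T at 20 weeks held 5.82, 5.35, 9.18 and 10.9 CPM, above every no DEN rat, with a log2 fold change of 1.42 (SE 0.27).

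The B-MYB gene Mybl2 had its highest mean at 8 weeks and at 20 weeks was the regulator nearest to its controls in NT. At 8 weeks it stood at 0.368, 0.420, 0.970 and 0.236 CPM without DEN and at 6.48, 8.93, 10.5 and 10.99 CPM in NT. Mybl2 passed the filter on low counts through NT, as only 2 of the 4 controls reached its minimum, so its test was taken from the fit with no filter. There Mybl2 rose, with a log2 fold change of 4.17 (SE 0.33, adjusted p = 8.48e-06, edgeR quasi-likelihood test), the largest among the regulators tested at that time. At 14 weeks NT held 5.46, 5.70, 6.77 and 8.30 CPM and T held 9.41, 5.78, 7.08 and 6.28 CPM, against 0.499 to 0.921 CPM without DEN. All DEN-treated tissue lay far above the controls, with log2 fold changes of 3.36 (SE 0.21) in NT and 3.43 (SE 0.25) in T. At 20 weeks NT held 1.47, 1.15, 1.59 and 1.20 CPM and T held 1.78, 1.54, 2.26 and 2.40 CPM. The controls of that age spread widely, at 1.08, 2.24, 0.475 and 1.51 CPM, and overlapped both tissues. The log2 fold change at 20 weeks was 0.06 (SE 0.35) in NT and 0.56 (SE 0.36) in T, and in NT its sign turned when the controls H13 (-0.065) or H15 (-0.24) or the NT of H26 (-0.037) were left out.

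**Figure D1:**
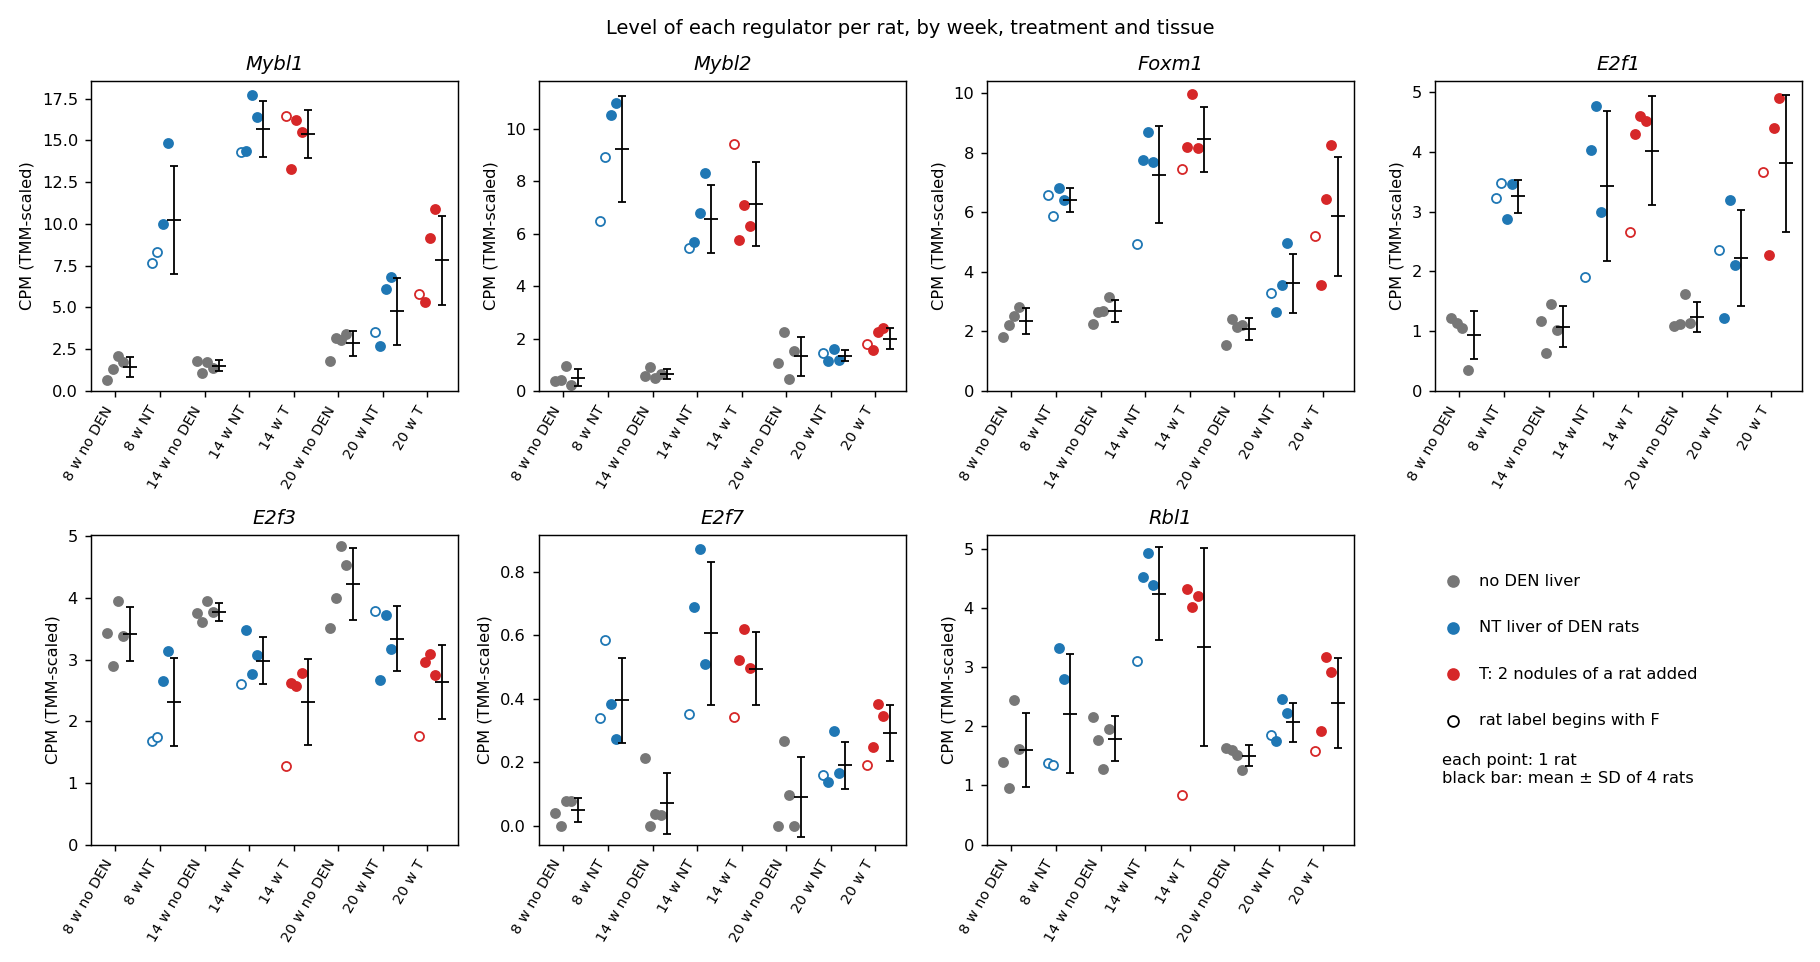
Level of 7 regulators in each rat (CPM after TMM scaling, linear axes) by week, treatment and tissue, with grey points for no DEN liver, blue for NT, red for T, open points for rats labelled F, and black bars for the mean and SD of 4 rats. Mybl1 and Mybl2 are high in DEN-treated liver at 8 and 14 weeks and lower at 20, with Mybl1 in T still above every control of that age. Foxm1 and E2f1 stay raised in T at 20 weeks, and E2f3 lies lower in T than in the controls.

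Between 14 and 20 weeks the mean of Mybl1 went from 15.7 to 4.78 CPM in NT and from 15.4 to 7.81 CPM in T. That of Mybl2 went from 6.56 to 1.35 CPM and from 7.14 to 1.99 CPM. As a difference from the controls of each age, 13.7% of the excess of Mybl1 at 14 weeks was left at 20 weeks in NT and 35.8% in T, and for Mybl2 0.393% and 10.3%. With a rat left out, the share of Mybl1 in NT was 8.87% without H28, that of Mybl2 in T was 5.91% without the control H15, and that of Mybl2 in NT ran from -4.42% (without H15) to 5.57% (without H14). The controls changed too, since Mybl1 without DEN was higher at 20 weeks (1.78 to 3.40 CPM) than at 14 weeks (1.08 to 1.77 CPM), and the mean of Mybl2 went from 0.655 to 1.33 CPM with overlap. As the change of the DEN difference from 14 to 20 weeks, the log2 values were -2.64 (SE 0.38) in NT and -1.92 (SE 0.34) in T for Mybl1, and -3.30 (SE 0.44) and -2.88 (SE 0.47) for Mybl2. From 8 to 14 weeks the corresponding values in NT were 0.61 (SE 0.37) for Mybl1 and -0.83 (SE 0.44) for Mybl2. Without the control H07 they were 0.38 and -1.37. None of these differences between weeks was tested for the MYB genes, which were noted for them.

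Foxm1, the forkhead factor that drives mitotic genes, was raised in NT and T and kept most of its rise in T at 20 weeks. NT at 8 weeks held 6.57, 5.86, 6.83 and 6.40 CPM against 1.80, 2.22, 2.52 and 2.83 CPM without DEN. NT at 14 weeks held 4.93, 7.77, 8.68 and 7.68 CPM against 2.24, 2.64, 2.67 and 3.15 CPM. The groups did not overlap at either time, as for 18.8% and 25% of all genes. Foxm1 rose by log2 fold changes of 1.44 (SE 0.16, adjusted p = 9.88e-05) and 1.47 (SE 0.18, adjusted p = 9.28e-05, both edgeR quasi-likelihood test). T at 14 weeks held 7.44, 8.19, 9.98 and 8.17 CPM, a log2 fold change of 1.64 against no DEN (SE 0.15, adjusted p = 4.46e-05). At 20 weeks NT held 3.28, 2.65, 3.55 and 4.98 CPM and the controls 1.55, 2.40, 2.14 and 2.22 CPM. All 4 NT livers stood above all 4 controls, as for 16.1% of all genes. The log2 fold change of 0.81 (SE 0.23, edgeR adjusted p = 0.0235) missed the thresholds used for NT, which ask for a log2 change of 1 or more in either direction with an adjusted p no higher than 0.01. T at 20 weeks held 5.20, 3.55, 6.45 and 8.26 CPM and passed those used for T (0.5 and 0.05), with a log2 fold change of 1.46 (SE 0.26, adjusted p = 0.00125).

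E2f1, an activator of S-phase genes, was raised in the same groups. At 8 weeks it stood at 3.23, 3.47, 2.87 and 3.46 CPM in NT and at 1.23, 1.13, 1.05 and 0.354 CPM without DEN. At 14 weeks NT held 1.91, 4.04, 4.77 and 3.00 CPM against 1.17, 0.641, 1.46 and 1.03 CPM. At both times the groups did not overlap, as for 18.8% and 25% of all genes. E2f1 rose by log2 fold changes of 1.77 (SE 0.27, adjusted p = 0.000447, in the fit with no filter, since 3 of the 4 controls at 8 weeks reached the minimum) and 1.70 (SE 0.31, adjusted p = 0.00107, edgeR). T held 2.66, 4.31, 4.60 and 4.52 CPM at 14 weeks, a log2 fold change of 1.88 (SE 0.27, adjusted p = 0.00049). In T at 20 weeks it held 3.67, 2.27, 4.40 and 4.90 CPM, a log2 fold change of 1.59 (SE 0.26, adjusted p = 0.000902). NT at 20 weeks held 2.36, 1.23, 3.20 and 2.12 CPM against 1.08, 1.12, 1.62 and 1.13 CPM without DEN, and the groups overlapped. That difference of 0.88 (SE 0.29, edgeR adjusted p = 0.0441) missed the NT thresholds, which it passed without rat H25 (1.07, adjusted p = 0.00846), whereas without the deeply sequenced H26 it was 0.63 (adjusted p = 0.127).

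E2f3, the other activator measured, had a log2 fold change below 0 in every comparison with no DEN liver. In the controls it stood between 2.90 and 4.85 CPM at all ages. T at 14 weeks held 1.28, 2.63, 2.57 and 2.78 CPM and T at 20 weeks 1.76, 2.96, 3.09 and 2.75 CPM. Both lay below every control of the same age, as for 23.9% and 21.5% of all genes. E2f3 fell in T by 0.72 on the log2 scale at 14 weeks (SE 0.23, adjusted p = 0.0273) and by 0.71 at 20 weeks (SE 0.20, adjusted p = 0.0132, both edgeR). Without the F rats, which held the lowest values in T, the log2 fold changes were -0.50 (adjusted p = 0.00313) and -0.54 (adjusted p = 0.0198, both edgeR). The first of these lay just past the size of 0.5 used for T. The call at 14 weeks was lost when any of the controls H09, H10, H11 or H12 or the nodules of H22 were left out (adjusted p = 0.0517 to 0.0626) and with nodule 1 of each rat alone (adjusted p = 0.0612), and that at 20 weeks with nodule 2 alone (adjusted p = 0.0801). In NT the log2 fold changes were -0.57 (SE 0.22, adjusted p = 0.0629) at 8 weeks, -0.30 (SE 0.13, adjusted p = 0.0675) at 14 weeks and -0.33 (SE 0.17, adjusted p = 0.169) at 20 weeks, and none passed. At 8 weeks the F rats held 1.69 and 1.75 CPM and the H rats 2.65 and 3.15 CPM, and the value without the F rats was -0.23 (adjusted p = 0.424).

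The repressor E2f7 was rare, with 0 to 6 read pairs per control liver. At 14 weeks the controls held 6, 0, 1 and 1 pairs (0.213, 0, 0.0356 and 0.0332 CPM) and NT held 12, 27, 27 and 19 pairs (0.352, 0.690, 0.871 and 0.509 CPM). T held 0.341, 0.520, 0.619 and 0.496 CPM. The log2 fold change at 14 weeks was 3.04 in NT (SE 0.61) and 2.73 in T (SE 0.61), and 4.47 and 4.21 without the control H09, which held 6 of the 8 control pairs. E2f7 passed the filter on low counts there only through the DEN-treated livers and was removed by it at 8 and 20 weeks, so those values are given with no test, and it was tested in fits with no filter, a choice made for this gene, and for Mybl2 and E2f1 at 8 weeks, after the values were seen. There its log2 fold change was 2.86 in NT at 8 weeks (SE 0.56, adjusted p = 0.00235), 3.03 in NT at 14 weeks (SE 0.61, adjusted p = 0.00135) and 2.75 in T at 14 weeks (SE 0.63, adjusted p = 0.00609, edgeR), all past the thresholds. At 20 weeks it was 1.30 in NT (SE 0.75, adjusted p = 0.235) and 1.74 in T (SE 0.74, adjusted p = 0.0774, edgeR), and neither passed. At 8 weeks 51 pairs in NT stood against 5 in the controls, a depth-scaled ratio of 7.97 (95% interval for counting error alone 3.20 to 25.6). At 20 weeks the ratio to the controls, with 7 pairs, was 2.95 (1.36 to 7.63) for 66 pairs in NT and 3.55 (1.64 to 9.10) for 81 in T. These intervals leave out the spread between rats, and 50 of the 66 pairs came from H26.

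Rbl1, which encodes the pocket protein p107, rose in NT at 14 weeks and varied widely between rats. At 14 weeks the controls held 2.17, 1.76, 1.28 and 1.96 CPM and NT held 3.11, 4.52, 4.93 and 4.39 CPM. The groups did not overlap, as for 25% of all genes, and the log2 fold change was 1.28 (SE 0.19, adjusted p = 0.000302, edgeR). T of these rats held 0.836 CPM in F06 and 4.32, 4.01 and 4.20 CPM in H21, H22 and H23. F06 thus lay below all controls and the other 3 rats above them, and over the 4 rats the log2 fold change of 0.88 (SE 0.45, adjusted p = 0.132) missed the thresholds. Without F06 it was 1.22 (adjusted p = 4.18e-05), and it also passed in a joint fit of all 8 groups (0.90, adjusted p = 0.0302). Both nodules of F06 were low, at 0.607 and 1.06 CPM against 3.47 to 5.42 CPM in the other 6. The share of read pairs counted as falling within no gene feature was 34.5% and 28.2% in the F06 nodules and 22.95% to 25.5% in the others. Its part in the result was not tested.

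The other values of Rbl1 also moved with the F rats. At 8 weeks F09 and F10 held 1.38 and 1.34 CPM in NT, within the controls (0.965 to 2.44 CPM), and H17 and H18 held 3.32 and 2.81 CPM, above them. The log2 fold change was 0.45 (SE 0.36, adjusted p = 0.361), and 0.94 (adjusted p = 0.0438) without the F rats. At 20 weeks NT held 1.85, 1.75, 2.46 and 2.23 CPM, above the controls at 1.64, 1.60, 1.52 and 1.26 CPM, as for 16.1% of all genes. The log2 fold change was 0.48 (SE 0.20, edgeR adjusted p = 0.0901). T at 20 weeks held 1.58 CPM in F03 and 1.92, 3.17 and 2.91 CPM in the others, with a log2 fold change of 0.64 (SE 0.25, adjusted p = 0.0534). That difference passed without F03 (0.81, adjusted p = 0.0151), without H25 (0.73, adjusted p = 0.0395), with nodule 2 of each rat alone (0.82, adjusted p = 0.022) and by DESeq2 (0.64, adjusted p = 0.0493). It was lower with nodule 1 of each rat alone (0.38, adjusted p = 0.473) and without H26 (0.49, adjusted p = 0.145). Over the 5 DEN-treated groups, every F rat lay below all H rats in 4 for Rbl1 and in 4 for E2f3, in 3 for E2f7, and in 2 each for the other 4 regulators. At 14 and 20 weeks each group held only 1 F rat beside 3 H rats, so that rat can be the lowest by chance. F06 and F03 each enter as NT and as T, so the groups are not independent. The share of all genes with this order was not counted. This comparison was made after the values were seen and was not tested.

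In the fits with no filter on low counts, which every measured regulator entered, 5 of 7 were called higher in NT at 8 weeks (Mybl1, Mybl2, Foxm1, E2f1 and E2f7), where 5.98% of 13638 genes were. At 14 weeks it was 4 of 5 in NT (Foxm1, E2f1, E2f7 and Rbl1), against 11.2% of all genes, and at 20 weeks 0 of 5, against 4%. In T at 14 weeks 3 of 5 were called higher (Foxm1, E2f1 and E2f7) and 1 lower (E2f3), against 22% and 11.7% of genes. In T at 20 weeks 2 of 5 were higher (Foxm1 and E2f1) and E2f3 lower, against 20.9% and 12.1%. With the filter, and with E2f7 left out, the same regulators were called, where the shares of all genes called higher were 7.29%, 13.1% and 4.89% in NT at 8, 14 and 20 weeks and 23.9% and 23.6% in T at 14 and 20 weeks, and 15.2% were called lower in T at each time. Mybl1 and Mybl2 are left out of these counts after 8 weeks. NT and T of the same week share their control rats, so the rows of calls are not independent of each other.

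**Figure D2:**
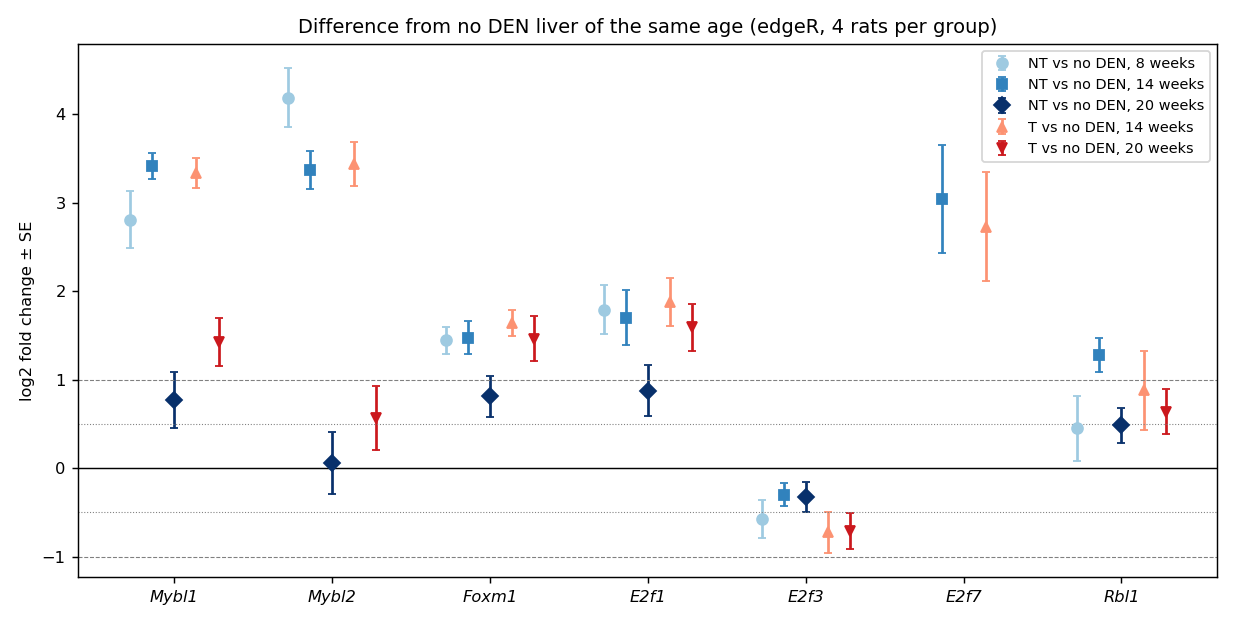
Log2 fold change against no DEN liver of the same age, with its standard error (edgeR, 4 rats in each group), for each regulator in NT at 8, 14 and 20 weeks and in T at 14 and 20 weeks, with dashed lines at the size used for NT and dotted lines at that used for T. Mybl1 and Mybl2 drop from above 3 at 14 weeks to 0.77 and 0.06 in NT at 20 weeks, whereas E2f3 is below 0 throughout. E2f7 is drawn only at 14 weeks, where it passed the filter on low counts.

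In the controls alone, none of the 4 regulators tested passed between ages. From 8 to 14 weeks, 0 of 4 passed, the log2 differences lying between 0.13 (E2f3) and 0.19 (E2f1). Mybl1 (0.04, SE 0.30) and Mybl2 (0.36, SE 0.39) are described with no test. The sign of Mybl1 turned without H05 (-0.20), H06 (-0.011), H09 (-0.058) or H11 (-0.040), and Mybl2 stood at 0.90 without H07. From 14 to 20 weeks 0 of 4 passed, from -0.35 (Foxm1, SE 0.18) to 0.21 (E2f1, SE 0.26). By edgeR 0% of all genes passed in either comparison, with 1038 and 670 genes at an unadjusted p under 0.05, and DESeq2 called 31 and 40.

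The change of the DEN difference with time was tested for Foxm1, E2f1, E2f3 and Rbl1. In NT from 14 to 20 weeks the values were -0.66 for Foxm1 (SE 0.30, adjusted p = 0.27), -0.81 for E2f1 (SE 0.45, adjusted p = 0.376), -0.78 for Rbl1 (SE 0.27, adjusted p = 0.159) and -0.02 for E2f3 (SE 0.20, adjusted p = 0.976) on the log2 scale. None of the 4 passed, where 0.738% of 11245 genes did. E2f7, described with no test, stood at -1.72 (SE 1.19) in NT and -0.99 (SE 1.13) in T, but its sign in T turned without the control H14 (0.40, with -0.34 in NT), and without the control H09 the values were -3.18 in NT and -2.48 in T. In T the values of the others ran from -0.29 for E2f1 to 0.01 for E2f3 (SE 0.30), and 0 of 4 passed (adjusted p = 1 for each), against 0.0862% of all genes. For Foxm1 in T the 95% interval of this change ran from -0.83 to 0.46, and for E2f1 from -1.10 to 0.52. From 8 to 14 weeks in NT 0 of 4 passed, against 8.96% of 11219 genes, with values from -0.09 (E2f1, SE 0.44) to 0.82 (Rbl1, SE 0.43, adjusted p = 0.234). Without the F rats the value of Rbl1 was 0.46 (edgeR adjusted p = 0.453). In mean CPM, the excess over the controls that was left at 20 weeks was 33.5% in NT and 65.6% in T for Foxm1, 41.9% and 87.4% for E2f1, 23% and 57.4% for Rbl1, and 18.7% and 47.6% for E2f7. With a rat left out, the share moved by over 1.5 times for Rbl1 in T, to 37.3% without F06, and for E2f7 in NT, to 29.7% without the control H14 and 11.9% without H26.

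No regulator was called between nodules and NT of the same rats at 14 weeks. Foxm1 was higher in T in 4 of 4 rats, E2f1 and Mybl2 in 3, Mybl1 in 1, and E2f3, E2f7 and Rbl1 in 0. The log2 differences between T and NT ran from -0.39 (E2f3, SE 0.25) to 0.21 (E2f1, SE 0.29) among the 4 tested. Without F06, the F rat of that week, they were -0.25 for E2f3 (adjusted p = 0.415) and -0.16 for Rbl1 (adjusted p = 0.508, both edgeR). By edgeR 0 of 4 regulators and 0% of all genes passed, with 1348 genes at an unadjusted p under 0.05 and 24 called by DESeq2, and with the rat as a block the counts were again 0. The 95% interval for Foxm1 was -0.20 to 0.59, which leaves out a difference as large as that between NT and no DEN liver (1.47), and the interval for Rbl1 was wider, at -1.34 to 0.61.

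At 20 weeks the nodules held more of most regulators than the NT of the same rat. Mybl1, Mybl2, Foxm1, E2f1 and E2f7 were each higher in T in 4 of 4 rats, Rbl1 in 3 and E2f3 in 1. The share of all genes higher in T in 4 of 4 rats was not counted at either week, so these counts of rats are descriptions only. Without regard to the rat, the log2 differences were 0.67 for Foxm1 (SE 0.26, adjusted p = 0.168) and 0.72 for E2f1 (SE 0.30, adjusted p = 0.184), and 0 of 4 regulators and 0% of genes passed by edgeR, with 2767 genes at an unadjusted p under 0.05 and 908 called by DESeq2. With the rat as a block, Foxm1 (0.66, SE 0.12, adjusted p = 0.00141) and E2f1 (0.75, SE 0.15, adjusted p = 0.00285) were called higher in T, where 9.21% of 11546 genes were. The block values of the others tested were 0.16 for Rbl1 (SE 0.16, adjusted p = 0.466) and -0.38 for E2f3 (SE 0.18, adjusted p = 0.146). Mybl1, Mybl2 and E2f7, described without a test, stood at 0.70 (SE 0.11), 0.53 (SE 0.17) and 0.56 (SE 0.32) in the same fit. The 4 bile duct markers moved the same way, with a median log2 difference of 1.16 between T and NT in the fit without the block, and the 8 hepatocyte markers at -0.41, and their part was not tested.

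**Figure D3:**
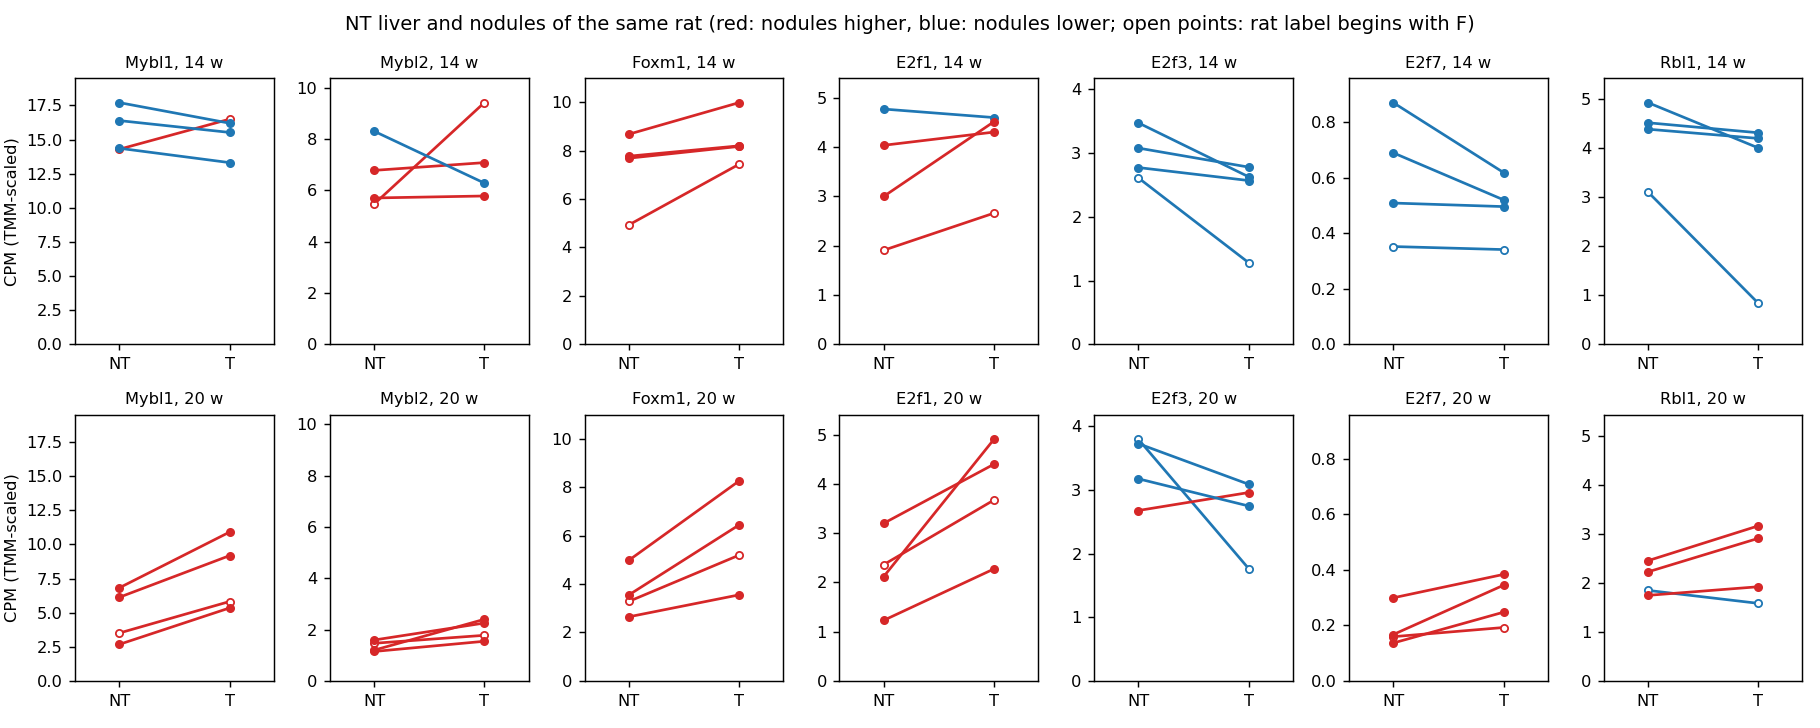
Level of each regulator (CPM after TMM scaling, axes from 0) in NT and in the summed nodules of the same rat, with 4 rats at 14 weeks (upper row) and 4 at 20 weeks (lower row), red lines where T was higher, blue lines where it was lower, and open points for the rats labelled F. At 20 weeks Mybl1, Mybl2, Foxm1, E2f1 and E2f7 rise in all 4 rats, whereas at 14 weeks only Foxm1 does, and Rbl1 of F06 drops from 3.11 to 0.836 CPM.

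The 2 nodules of a rat were compared with each other as a measure of spread within a liver. At 14 weeks the median ratio of the higher to the lower nodule was 1.25 for Mybl1, 1.34 for Mybl2, 1.17 for Foxm1 and 1.14 for E2f1. At 20 weeks it was 1.36, 1.32, 1.04 and 1.11. Single nodules at 20 weeks ran from 4.70 to 12.8 CPM for Mybl1 and from 1.42 to 3.19 CPM for Mybl2, and those at 14 weeks from 12.5 to 21.5 CPM and from 5.11 to 11.7 CPM. For Mybl2 the ranges of the 2 weeks did not meet, which restates the fall for which it was noted. The 2 nodules of a rat are not separate replicates. The largest ratio within a rat was that of Rbl1 in F03, with 0.611 CPM in nodule 1 and 2.37 CPM in nodule 2, a ratio of 3.88.

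Ordered by mean, Mybl1 rose from no DEN at 8, 14 and 20 weeks through NT and T at 20 weeks and NT at 8 weeks to T and NT at 14 weeks. Of the 7 neighbouring pairs in that order, only no DEN at 14 and at 20 weeks did not overlap. For Mybl2 the order was no DEN at 8, 14 and 20 weeks, NT and T at 20 weeks, NT and T at 14 weeks, and NT at 8 weeks, with a gap only between T at 20 weeks and NT at 14 weeks. That gap is the fall for which Mybl2 was noted. For the other 5 genes all neighbouring groups overlapped. The order of Foxm1 ran from no DEN at 20 weeks (2.08 CPM) to T at 14 weeks (8.45 CPM), and that of E2f1 from no DEN at 8 weeks (0.940 CPM) to T at 14 weeks (4.02 CPM), with T at 20 weeks next (3.81 CPM). That of Rbl1 ran from no DEN at 20 weeks (1.51 CPM) to NT at 14 weeks (4.24 CPM), whereas E2f3 was lowest in NT at 8 weeks (2.31 CPM) and highest in no DEN at 20 weeks (4.23 CPM).

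The partners of these factors were described from a list of 11 genes for other E2F, DP, pocket protein and MuvB core members, of which 9 were measured. None of the 9 was called in NT at 8, 14 or 20 weeks, where 7.91%, 15.2% and 5.22% of all genes were called in either direction, with medians of -0.18, -0.19 and -0.13 on the log2 scale at 8, 14 and 20 weeks against medians near 0 for all genes (-0.01, 0.02 and 0.02). In T at 14 weeks 2 were called lower, Rbl2 (p130, -0.67, SE 0.10) and the DP gene Tfdp2 (-0.82, SE 0.20), where 15.2% of all genes were, so that this count was near the share of all genes. In T at 20 weeks 4 were, again Rbl2 (-0.71, SE 0.11) and Tfdp2 (-0.85, SE 0.17), with Rb1 (-0.54, SE 0.16) and the MuvB gene Lin54 (-0.53, SE 0.14), beside 15.2% of all genes. With the rat as a block, Rbl2 was also called lower in T than in NT at 20 weeks (-0.52, SE 0.07, edgeR adjusted p = 0.000342), the 1 partner of 9 that was, where 5.46% of all genes were. Among the pocket protein genes in T at 14 weeks, Rbl2 was thus called lower while Rbl1 lay above the controls in 3 of 4 rats.

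Upstream of the E2F factors, a list of 18 symbols for cyclins, kinases and their inhibitors had 17 measured. Of the 16 tested in NT, the test called 6 higher at 8 weeks, 9 at 14 weeks and 1 at 20 weeks (the CDK4/6 inhibitor gene Cdkn2c, 1.98, SE 0.23), where 7.29%, 13.1% and 4.89% of all genes were, so that the count at 20 weeks was near the share of all genes. The p21 gene Cdkn1a, a CDK inhibitor induced by p53, led at 8 weeks with a log2 fold change of 2.80 (SE 0.15). Its level was 227 CPM in NT at 8 weeks, 139 CPM at 14 weeks and 52.8 CPM at 20 weeks, against 32.4, 37.2 and 42.8 CPM without DEN. The DEN difference of Cdkn1a became smaller from 8 to 14 weeks (-0.86, SE 0.20, edgeR adjusted p = 0.0148, where 8.96% of all genes passed). From 14 to 20 weeks it also became smaller in NT (-1.62, SE 0.28, edgeR adjusted p = 0.0145) and in T (-1.73, SE 0.24, edgeR adjusted p = 0.00937), where 0.738% and 0.0862% of all genes passed. The proto-oncogene Myc passed in the other direction from 8 to 14 weeks (1.89, SE 0.55, edgeR adjusted p = 0.0479), and at 14 weeks it had the highest log2 fold change in NT among the 16 genes of the list that were tested (3.02, SE 0.34). Mdm2, the p53 ligase gene, also passed in NT from 14 to 20 weeks (-1.11, SE 0.13, edgeR adjusted p = 0.000394). Cdkn1a and Mdm2 were the 2 of 17 listed genes that did. In T 11 of 17 were called higher at 14 weeks (23.9% of all genes), and 9 higher and 1 lower at 20 weeks (23.6% and 15.2%). Cdkn2a, the INK4A and ARF inhibitor gene, stood at 0.767 to 1.90 CPM in T at 14 weeks and 0.670 to 2.82 CPM at 20 weeks, against at most 0.0710 CPM in the controls of those weeks. It passed the filter on low counts only through T. In the fits with no filter, which all 17 entered, 6, 10 and 2 were called higher in NT at 8, 14 and 20 weeks, Cdkn2a among them at 14 and 20 weeks, and in T 11 were higher at 14 weeks, with 9 higher and 1 lower at 20 weeks.

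Among 24 S-phase genes listed as E2F targets, 23 were measured, and 13 were called higher in NT at 8 weeks, 15 at 14 weeks and 2 at 20 weeks (among them the replication helicase gene Mcm3, 1.22, SE 0.22), beside 7.29%, 13.1% and 4.89% of all genes, and the count at 20 weeks was near that share. Between 3 and 5 of them passed the filter in each comparison with fewer than 4 controls at its minimum, and with no filter the counts were 13, 15 and 3 in NT. Their median log2 fold change was 1.41, 1.35 and 0.58 at these times. Rrm2, a subunit of ribonucleotide reductase, led at 8 weeks with 3.03 (SE 0.26). In T 19 were higher and 1 lower at both 14 and 20 weeks (23.9% and 23.6% of all genes were higher and 15.2% lower), also with no filter, the lower one being the uracil glycosylase gene Ung (-0.87, SE 0.18, and -0.75, SE 0.11). Tk1 (-1.09, SE 0.20) and Tyms (-1.03, SE 0.22), which supply thymidylate, passed the test of a smaller DEN difference at 20 than at 14 weeks in NT. They were 2 of the 23 genes, where 0.738% of all genes passed, and in T 0 of 23 passed, beside 0.0862%.

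Among 27 mitotic genes listed as targets of MYB-MuvB and FOXM1, 26 were measured. In NT 25 were called higher at 8 weeks, 26 at 14 weeks and 1 at 20 weeks (the spindle checkpoint gene Bub1b, 1.24, SE 0.28), beside 7.29%, 13.1% and 4.89% of all genes, so that at 20 weeks the share of the list was no higher than that of all genes. With no filter the counts were again 25, 26 and 1. The medians were 2.33, 2.74 and 1.19. Ccnf was the one not called at 8 weeks (0.99, SE 0.20), and Ube2c, of the anaphase-promoting pathway, had the highest value there (2.85, SE 0.16). At 14 weeks the highest was Hmmr, which encodes a hyaluronan receptor that also acts at the spindle (3.22, SE 0.35, in NT and 3.39, SE 0.43, in T), and in T at 20 weeks the centromere protein gene Cenpf (2.71, SE 0.32). In T all 26 were called higher at both times (23.9% and 23.6% of all genes), with medians of 2.87 and 2.09. From 14 to 20 weeks 0 of 26 passed the test of a change in the DEN difference, in NT (median -1.51) or in T (median -0.60), beside 0.738% and 0.0862% of all genes. Between T and NT at 20 weeks 0 of 26 were called without the block (median 1.03) and 26 of 26 with it (median 1.02), beside 9 of 23 S-phase genes and 3 of 17 upstream genes (Ccne1, Cdkn2a and Cdkn2b), where 9.21% of all genes were higher with it.

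**Figure D4:**
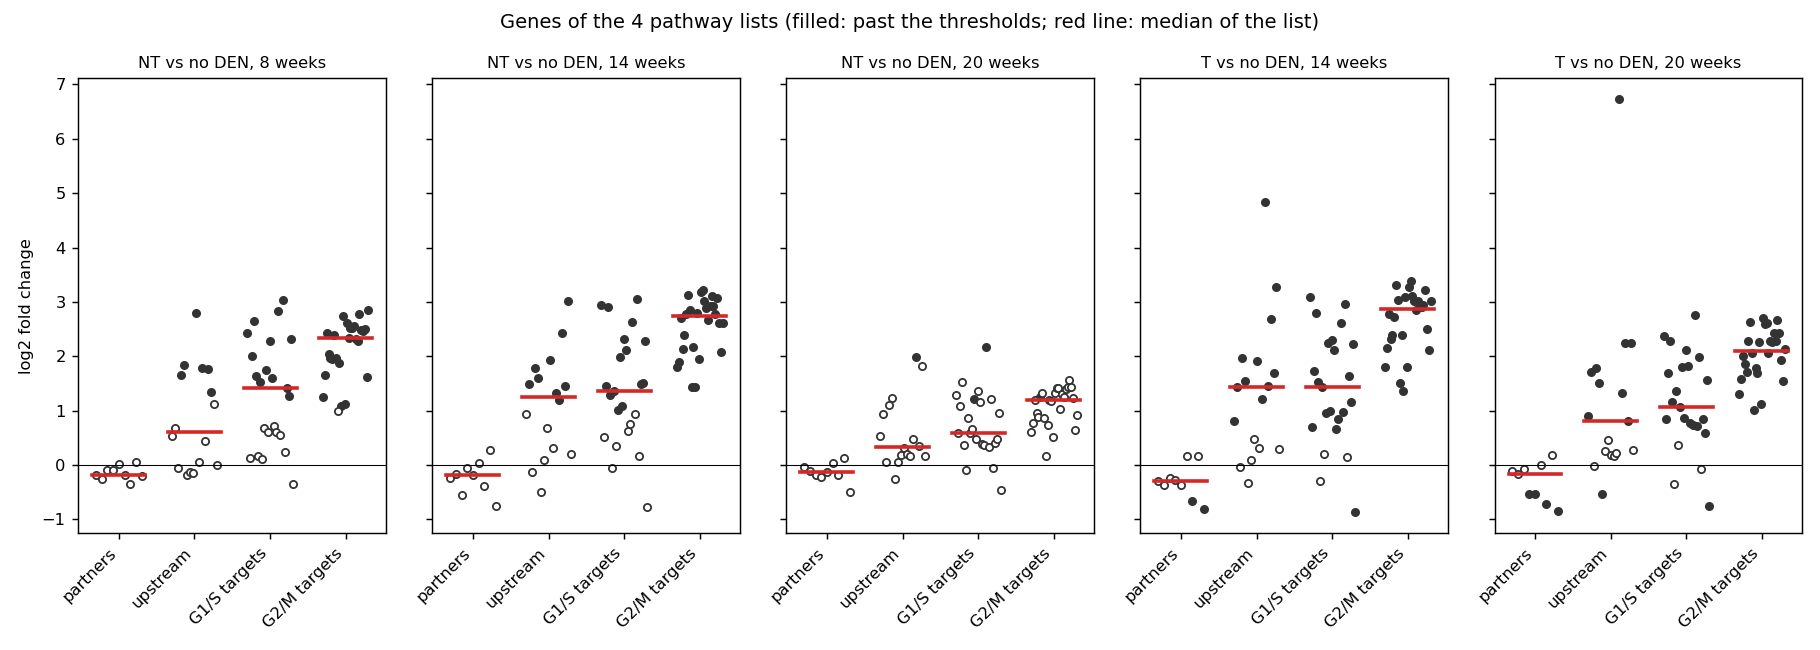
Log2 fold change against no DEN liver of the same age for each tested gene of 4 lists (partners, upstream genes, S-phase targets and mitotic targets, in that order from left to right), in NT at 8, 14 and 20 weeks and T at 14 and 20 weeks, with filled points past the thresholds and a red line at the median of each list. The mitotic targets have the highest median in each panel (2.33, 2.74, 1.19, 2.87 and 2.09), the medians of the partners lie below 0, and the highest upstream point in both T panels is Cdkn2a, which is nearly absent from the controls.

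The genes whose pattern over the 8 group means was most like that of each leading regulator were found among 10061 genes with a mean of at least 1 CPM, by the root mean square difference of centred log2 means. For Mybl1 they were Fam83d (0.20), Ect2 (0.23) and Kif23 (0.23), against a median of 1.34 over all candidates. For Mybl2 none came as close, the first being Ckap2 (0.46), Lama5 (0.47) and Ankrd13d (0.47), against a median of 1.54. Those of Foxm1 were Plek2 (0.10), Mmp2 (0.10) and Aspm (0.11) and those of E2f1 Gins1 (0.12), Fkbp10 (0.12) and LOC100910558 (0.14). Between the regulators, Mybl1 was nearer to E2f7 (0.32) than to Mybl2 (0.50), Foxm1 nearest to E2f1 (0.27), and E2f3 farthest from each of Mybl1, Mybl2, Foxm1 and E2f1 (1.03 to 1.77). These values are descriptions over 8 means from shared libraries.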

How the data were processed

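Libraries of poly(A) RNA, stranded and paired-end, came from 40 tissue samples. The authors aligned the reads with STAR 2.7.1a to rn6 and counted them per gene with HTSeq, and the deposited values are raw counts of read pairs per gene and library. Rows that name no gene were left out of library sizes. Among them were pairs within no gene feature (21.5% to 34.5% of a library) and, apart from these, pairs with multiple alignments (7.96% to 16.3%). Coordinates of promoters are those of GRCr8 and were not joined to rn6.

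Groups were taken from the sample labels. Both nodules of a rat were summed. After filterByExpr had removed low counts and TMM factors had scaled the libraries, each comparison was fitted on its own groups with the quasi-likelihood test of edgeR 4.0.16 in R 4.3.3, two-sided, with Benjamini-Hochberg adjustment over all genes tested. NT against no DEN was called where the log2 fold change reached 1 in either direction and the adjusted p was no higher than 0.01, comparisons with T at 0.5 and 0.05, and changes over time at an adjusted p no higher than 0.05. DESeq2 1.42.0, RLE scaling, no filter, a joint fit of 8 groups, single nodules, rats left out and the rat as a block were alternatives. NT and T come from the same rats by their labels, and the deviations of a rat's NT and T correlated at 0.37 to 0.54 in all 8 pairs. No libraries were duplicates of each other. The script was tested on simulated data.

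The members and gene lists were chosen with earlier results of these data known. All members are named, and of each list some of those with the highest or lowest log2 fold change or, where few passed, those that did. The values of 1 gene of the S-phase list are not reported here. Levels are not compared between genes, since no transcript lengths were used.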

Additional observations from a re-analysis of the deposited data

Results flagged for a closer look

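In each of the 56 sets of 4 rats formed by 7 regulators and 8 groups, the highest or lowest rat was compared with the other 3 by Dixon's criterion, which chance passes in about 1 of 20 sets, and 5 sets passed. In 3 of them the rat was F06 in T at 14 weeks, which lay below the others for E2f1 (2.66 CPM), E2f3 (1.28 CPM) and Rbl1 (0.836 CPM). The other two were the no DEN rat H15 at 20 weeks, high in E2f1 (1.62 CPM), and the no DEN rat H09 at 14 weeks, high in E2f7 (0.213 CPM, 6 read pairs).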

How the results depend on the processing

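The calls of Mybl1 and Mybl2 at 8 weeks, of Foxm1 and E2f1 at 8 and 14 weeks and in T at 20 weeks and of Rbl1 in NT at 14 weeks kept their direction and stayed past the thresholds under every alternative run. The changes of the calls of E2f3 and Rbl1 in T and of E2f1 in NT at 20 weeks are given beside these results. A regulator with few read pairs, such as E2f7, is limited by depth, and 4 rats per group limit the tests of change over time. For the values below the cause of the difference was not tested.

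Between T and NT at 20 weeks, 2 regulators and 1693 genes were called with the rat as a replicate block, 1 regulator and 1096 genes in the joint fit of 8 groups, 908 genes by DESeq2, 218 with nodule 1 of each rat alone and 445 without H25 (0 to 445 over the rats left out), against 0 in the comparison as reported. At 14 weeks DESeq2 called 24 genes, and the block changed no call there. In NT against no DEN at 20 weeks, 250 (without H16) to 649 genes were called with a rat left out, against 565, with 325 without H14 and 343 without H15, and 0 to 1 regulators.

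For the change of the DEN difference in NT from 8 to 14 weeks, DESeq2 called 1518 genes and the joint fit 151, against 1005, and leaving out a rat gave 533 (H21) to 1870 (H17), past 1.5 times the reported count also without F06 (1760), F09 (595), H07 (618), H10 (602) and H11 (622). From 14 to 20 weeks in NT the counts were 390 by DESeq2, 41 in the joint fit and 182 without the F rats, against 83, and 31 (H22) to 408 (H26) with a rat left out, past 1.5 times also without F03, F06, H10, H11, H21, H25 and H28 (33 to 386). In T they were 29, 16 and, with nodule 1 alone, 5, against 10, and 6 (F03, H11, H14, H16 or H25) to 15 with a rat left out. In the controls, 14 against 8 weeks gave 31 genes by DESeq2, 2 without the filter and 1 in the joint fit, with 0 to 166 (H07) when a rat was left out, and 20 against 14 weeks gave 40 by DESeq2, 2 without the filter and 0 to 2 with a rat left out, against 0 in both.

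Among the tested differences, signs turned only for those that had not passed. For Rbl1 between T and NT at 20 weeks the log2 difference was -0.036 with nodule 1 alone. For the change from 8 to 14 weeks in NT, Foxm1 was -0.0070 in the joint fit and -0.10 to 0.17 with a rat left out, E2f1 was 0.14 without the F rats and -0.32 to 0.18 with a rat left out and E2f3 was -0.0056 without the F rats. From 14 to 20 weeks E2f3 ran from -0.10 to 0.058 in NT and from -0.18 to 0.16 in T with a rat left out. In T it was -0.0081 by DESeq2, -0.0066 with RLE scaling, -0.038 without the F rats and -0.24 with nodule 1 alone, and Rbl1 was 0.037 with nodule 2 alone. In the controls from 8 to 14 weeks, E2f1 ran from -0.081 to 0.36 and Rbl1 from -0.034 to 0.41 with a rat left out. The shares of the excess left at 20 weeks with each rat left out were added after the data were seen.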
